A study of Mus musculus with 2 samples.

Results

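The genes described here are 37 genes that mark the endothelial cells of liver sinusoids and blood vessels, or that those cells use to signal. They were chosen by symbol, by matching each gene identifier of the deposited tables, with its version removed, to GENCODE M21, and all 37 were found among 43346 mouse gene identifiers. By role they comprised 6 scavenger and endocytic receptors, 4 other sinusoid-enriched genes, 5 receptors for vascular endothelial growth factor (VEGF) or angiopoietins, 15 pan-endothelial surface and junction genes, 4 angiocrine ligands and 3 transcription factors. Total RNA longer than 200 nucleotides had been sequenced from whole liver of C57BL/6J mice, adults of 8 weeks, with no treatment or genetic change named in the labels. The study held 2 libraries, numbered as biological replicates 1 and 2, in 1 group. The labels give both libraries the same donor and do not say whether they came from separate animals, so the spread between them may be technical. Without a second group no comparison of conditions exists, and all values below are levels in the 2 libraries and the distance between them.

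Liver sinusoids are lined by flattened endothelial cells with open pores and no continuous basement membrane, which lets plasma reach hepatocytes. These cells are known for clearing waste macromolecules and immune complexes from blood through scavenger receptors. Endothelial cells everywhere share junction proteins and receptor tyrosine kinases for VEGF and angiopoietins, and those of the liver also release angiocrine ligands: BMP2 acts on hepatocytes to raise hepcidin, an iron hormone, and WNT2, WNT9B and RSPO3 act on hepatocytes near the central vein.

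The libraries held 83816492 (replicate 1) and 71068181 (replicate 2) expected counts of endogenous genes, where an expected count is the authors' estimate of the reads belonging to a gene. Levels are given as endogenous TPM (a relative transcript abundance per unit of transcript length, rescaled after spike-in RNAs were removed). Because non-coding RNAs held most of the TPM, protein-coding genes took 12.2% of it in replicate 1 and 16.4% in replicate 2, which lowers every TPM value of an mRNA on this scale. Markers of the labelled tissue were high: Alb, which encodes albumin, stood at 6978 TPM in replicate 1 and 11030 TPM in replicate 2. RNA of other organs and of B cells differed between the libraries. Summed over 12 pancreatic acinar genes, TPM was 198 in replicate 1 and 53.5 in replicate 2, and over 10 skeletal muscle genes 7.34 and 0.352, with 4 of the 10 at 0 counts in replicate 2. Summed over 11 adrenal cortex genes, TPM was 25.2 in replicate 1 and 51.8 in replicate 2, with 4 of the 11 at 0 counts in replicate 1 and none at 0 in replicate 2. Fdx1 and Scarb1, which liver also expresses, made up most of the adrenal sum in replicate 1. Of all 11582 genes tested for the log2 ratio defined below, 1.61% were over 2-fold higher in replicate 2. Of the 8 adrenal genes tested, 6 were over 2-fold higher in replicate 2 (median 5.49), such as Star, the cholesterol carrier of steroid synthesis, with 48 and 2021 counts. All 5 tested B cell or plasma cell genes were over 2-fold higher in replicate 2 (median 1.61), with a summed TPM of 2.01 and 14.5. Those organs hold endothelial cells of their own, and the part of these tissues and cells in the results below was not tested.

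The sequence just before the start of a gene is where many of its control factors bind, so the promoters of the highest gene of each role group are shown, as far as RefSeq's table for build GRCm38.p6 holds them. The table had a window for 21 of the 37 genes, each reaching from 250 bases before the RefSeq start to 50 after it, and the other 16 had none. Printed are the 250 bases before the start, 5′ to 3′ on the gene's own strand, with capitals marking AGGAAG or its reverse complement CTTCCT, a core that ETS family factors bind in endothelial genes. Clec4g lies on the minus strand (chr8:3720652-3720901), Ehd3 on the plus strand (chr17:73804591-73804840), Kdr on the minus strand (chr5:75978456-75978705) and Aqp1 on the plus strand (chr6:55336049-55336298). The GENCODE starts of Ehd3 (73804134) and Aqp1 (55336432) lie elsewhere than the RefSeq starts used here.
Clec4g: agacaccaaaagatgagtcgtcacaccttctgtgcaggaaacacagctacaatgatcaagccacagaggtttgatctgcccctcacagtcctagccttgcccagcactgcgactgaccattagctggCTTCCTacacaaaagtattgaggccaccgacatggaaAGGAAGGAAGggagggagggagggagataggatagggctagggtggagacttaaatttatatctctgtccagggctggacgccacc
Ehd3: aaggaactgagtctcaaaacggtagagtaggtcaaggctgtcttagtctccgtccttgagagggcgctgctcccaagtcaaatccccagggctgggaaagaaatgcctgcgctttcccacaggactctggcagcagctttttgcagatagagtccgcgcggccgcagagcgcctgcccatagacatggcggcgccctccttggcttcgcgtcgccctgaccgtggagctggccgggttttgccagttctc
Kdr: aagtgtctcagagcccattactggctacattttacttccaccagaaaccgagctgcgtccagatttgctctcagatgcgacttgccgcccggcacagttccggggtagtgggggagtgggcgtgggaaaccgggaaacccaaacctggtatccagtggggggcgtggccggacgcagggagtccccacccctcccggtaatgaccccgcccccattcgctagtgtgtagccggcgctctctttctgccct
Aqp1: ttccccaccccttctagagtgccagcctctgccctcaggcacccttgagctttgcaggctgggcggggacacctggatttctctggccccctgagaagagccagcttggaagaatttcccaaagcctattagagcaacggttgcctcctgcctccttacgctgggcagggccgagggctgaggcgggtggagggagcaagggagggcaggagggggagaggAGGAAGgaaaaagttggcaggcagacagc
In Clec4g the motif stood 3 times, at -123, -86 and -82 counted from the start, and the last pair overlaps by 2 bases. Aqp1 held it once, at -29, and Ehd3 once, at base 6 after the start, beyond the printed stretch. Kdr held none in its window, which says only that these letters are absent there. Over all genes of the list with a window, 14 of 21 (66.7%) held AGGAAG or CTTCCT in at least 1 window. By window, 15 of their 23 did, against 35.4% of all 32851 windows of the same length. Counts of the list for the motifs below are of genes, and those of all windows are of windows. AGATAA or its reverse complement TTATCT, a core bound by GATA factors, stood in 1 of 21 (Tek) against 11.2% of all windows, and ACAAT or ATTGT, a core bound by SOX factors, in 6 of 21 (28.6%) against 31.0%. TATAAA or TTTATA stood in 2 of 21 against 13.6% of all windows. These are counts of letters, and no binding was measured.

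Together the 37 genes summed to 95.9 TPM in replicate 1 and 134 TPM in replicate 2, or 0.0115% ± 0.0027 of endogenous TPM (SD, n = 2). As a share of protein-coding TPM the sum was 0.0787% and 0.0822%, and as a share of expected counts 0.106% and 0.118%. In whole liver, fewer cells of a type and less RNA per cell cannot be told apart. At 1 TPM or more in both libraries were 20 of 37 (54.1%), against 31.0% of 21474 protein-coding genes. Replicate 2 alone had 29 at that level, and every gene of the list had at least 47 expected counts in both libraries.

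**Figure D1:**
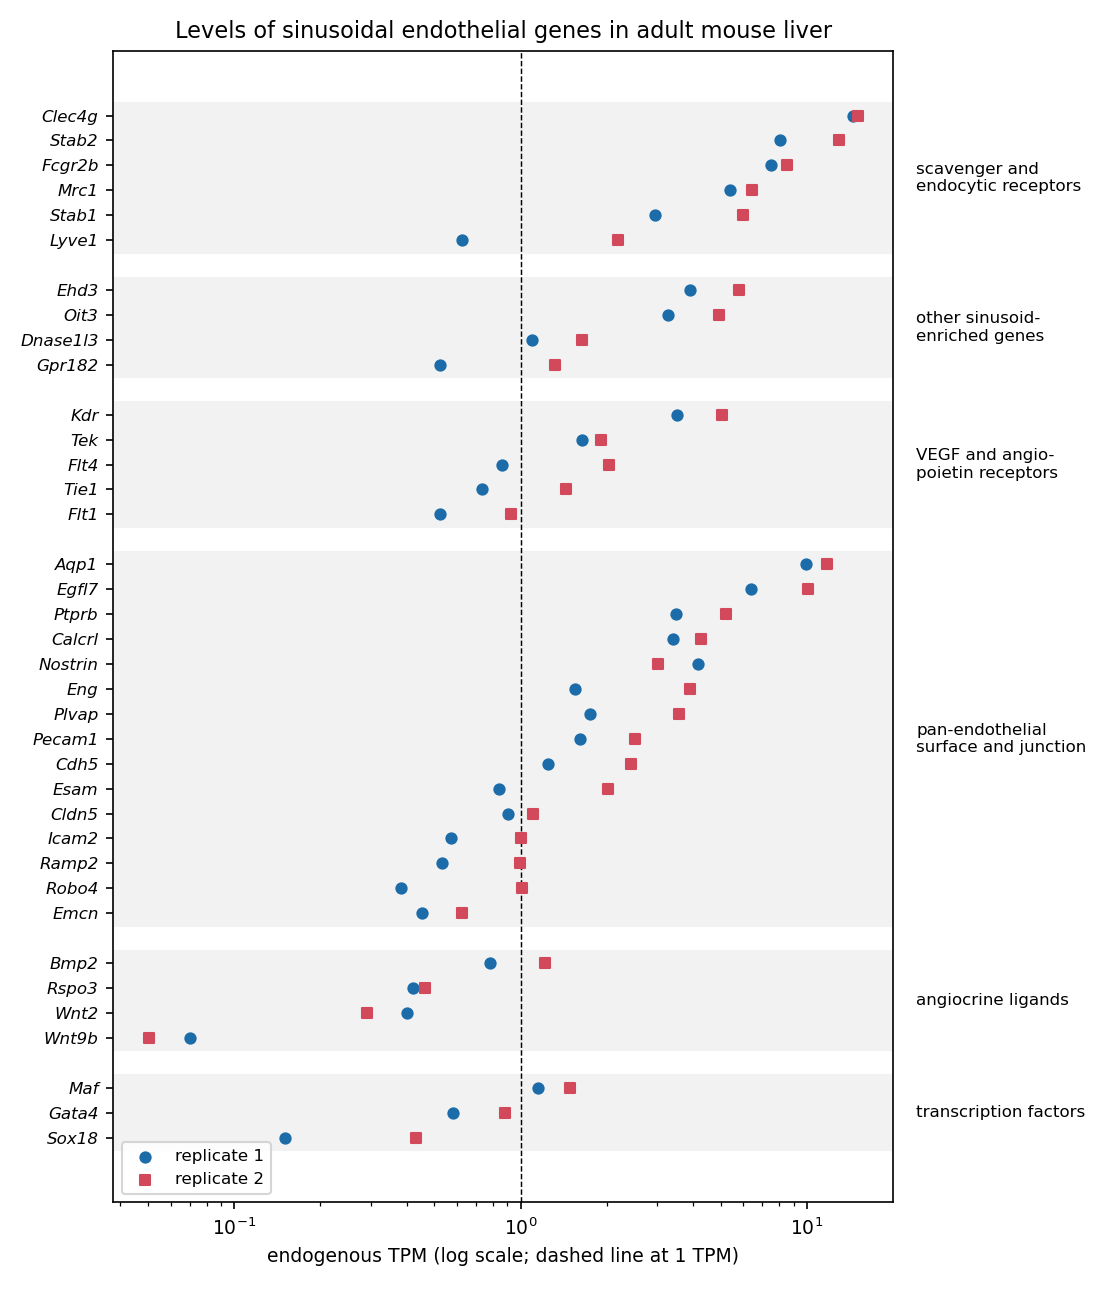
Endogenous TPM of each of the 37 genes (x axis, log scale) in replicate 1 (blue circles) and replicate 2 (red squares), grouped by role and ordered by mean level. Clec4g, Aqp1 and Stab2 lie farthest right and the ligands Wnt2, Wnt9b and Rspo3 left of the dashed line at 1 TPM. Most genes sit further right in replicate 2, where the median log2 ratio of TPM over all tested genes was 0.53.

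The 6 scavenger and endocytic receptors and the 15 pan-endothelial genes held nearly equal parts of the summed TPM of the list. Per gene the groups differed. The median TPM of a scavenger receptor was 6.45 in replicate 1 and 7.47 in replicate 2. That of a pan-endothelial gene was 1.55 and 2.51, and that of an angiocrine ligand 0.412 and 0.377. The scavenger receptors held 40.7% in replicate 1 and 37.98% in replicate 2 (39.3% ± 1.91, SD, n = 2), and the pan-endothelial genes 38.9% and 39.8% (39.3% ± 0.669). By expected counts, which are not corrected for transcript length, the shares were 33.2% ± 1.53 and 38.7% ± 0.385. The group sums were thus level by TPM, and by counts the sum of the pan-endothelial genes was higher in both libraries. Angiocrine ligands held 1.75% and 1.502% of TPM (1.62% ± 0.174) and 1.52% ± 0.152 of counts, far below both in either unit. VEGF and angiopoietin receptors held 8.02% ± 0.604 of TPM and 13.6% ± 0.852 of counts, the other sinusoid-enriched genes 9.67% ± 0.728 and 10.4% ± 0.508, and the transcription factors 2.03% ± 0.0831 and 2.67% ± 0.0636.

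**Figure D2:**
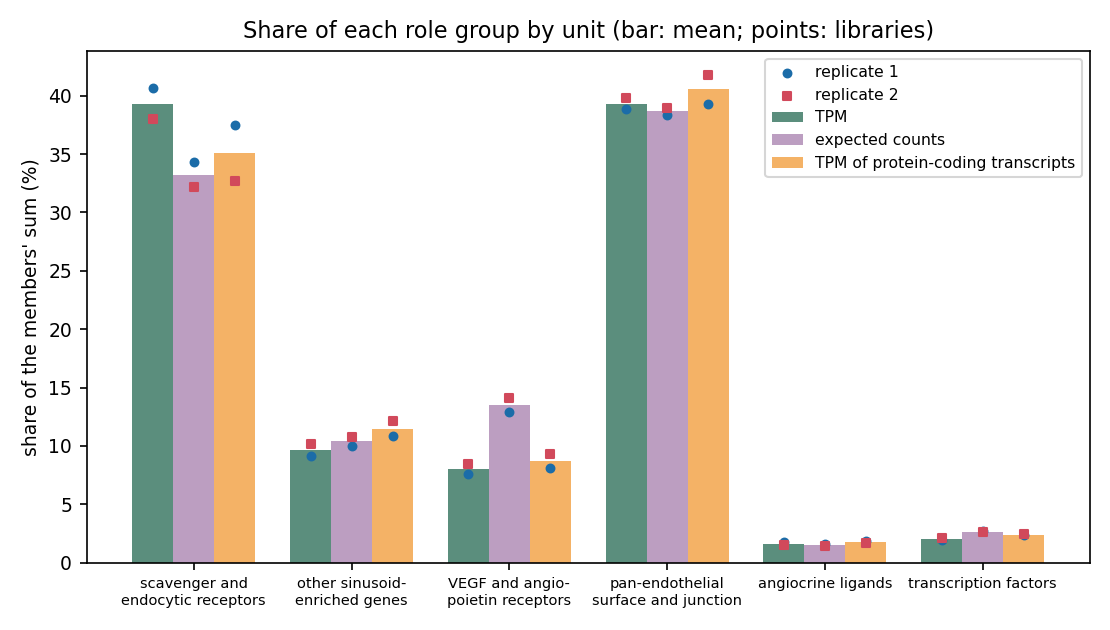
Share of the summed level of the 37 genes (y axis, %) held by each role group, by TPM, by expected counts and by the TPM of protein-coding transcripts alone. Bars are means and points the 2 libraries. Scavenger receptors stand at 39.3%, 33.2% and 35.1% in the 3 units, pan-endothelial genes at 39.3%, 38.7% and 40.5%, and angiocrine ligands under 2% in each.

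Among the scavenger receptors, Clec4g, which encodes the sinusoidal lectin LSECtin, was the most abundant gene of the list in both libraries, at 14.5 TPM in replicate 1 and 15.0 TPM in replicate 2 (14.8 ± 0.368). Stab2, the hyaluronan receptor stabilin-2 (chr10:86841198-87008025, minus strand), followed with 8.04 and 12.9 TPM. Fcgr2b, which encodes the inhibitory Fc receptor that takes up immune complexes, had 7.51 and 8.51 TPM. Mrc1, the mannose receptor, had 5.40 and 6.43 TPM, and Stab1, the related stabilin-1, 2.94 and 5.97 TPM. Lyve1, a hyaluronan receptor also found on lymphatic vessels (chr7:110850607-110863239, minus strand), was lowest of the group at 0.622 and 2.19 TPM, the largest ratio between libraries in the group. Kupffer cells, the macrophages of the sinusoid, also express Mrc1, Stab1 and Fcgr2b. All 14 Kupffer cell or macrophage genes had counts in both libraries, and 10 were at 1 TPM or more in both, against 31.0% of protein-coding genes. The 14 were led by Slc40a1, Cd5l and Clec4f, with a summed TPM of 94.8 in replicate 1 and 118 in replicate 2. How much of Mrc1, Stab1 and Fcgr2b came from Kupffer cells was not tested. Without these genes and Maf, the scavenger share was 28.1% ± 1.73 and the pan-endothelial share 47.5% ± 0.374 of the remaining TPM.

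Of the other sinusoid-enriched genes, Ehd3, an endocytic recycling protein, had 3.89 TPM in replicate 1 and 5.82 TPM in replicate 2. Oit3, a secreted or membrane protein with a zona pellucida domain, had 3.27 and 4.92 TPM, and Dnase1l3, a nuclease that degrades DNA in blood, 1.09 and 1.64 TPM. Gpr182, a scavenging receptor for chemokines, was at 0.522 TPM in replicate 1 and 1.32 TPM in replicate 2. Thus 3 of the 4 genes passed 1 TPM in both libraries, and Gpr182 only in replicate 2.

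Kdr, the main receptor for VEGF-A (VEGFR2), led the receptor kinases with 3.53 TPM in replicate 1 and 5.04 TPM in replicate 2. Tek, the angiopoietin receptor TIE2, had 1.64 and 1.91 TPM. Its partner Tie1 had 0.733 and 1.45 TPM. Flt4, the VEGF-C receptor VEGFR3, had 0.863 and 2.04 TPM, and Flt1, VEGFR1, which binds VEGF-A with high affinity and limits its signal, 0.522 and 0.924 TPM. The order Kdr first and Flt1 last held in both libraries, while Tek stood above Flt4 in replicate 1 and below it in replicate 2, where their deposited TPM intervals overlapped.

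The 15 pan-endothelial genes spanned a wide range. Aqp1, a water channel also found in bile duct cells and red cells, had 9.97 TPM in replicate 1 and 11.7 TPM in replicate 2, ranking 2 and 3 of the list. Genes of red cells summed to 132 and 262 TPM, and their part in Aqp1 was not tested. Egfl7, a secreted matrix protein, had 6.39 and 10.1 TPM. Of its exon bases 7.37% are shared with the protein-coding gene Gm20532 on the same strand, and how far this moved its level was not tested. Its exons also hold the miRNA genes Mir126a and Mir126b (2.04% and 1.62% of its exon bases). Mature miRNAs are too short for these libraries. Ptprb, the phosphatase VE-PTP that restrains TIE2, had 3.50 and 5.22 TPM. Its 12907 and 12313 expected counts were the largest of the list, more than those of Clec4g (4597 and 3109), which shows how far transcript length separates counts from TPM.
Calcrl, the receptor that binds adrenomedullin together with RAMP2, had 3.41 and 4.27 TPM. Nostrin, a trafficking protein of nitric oxide synthase, had 4.16 and 3.01 TPM, one of 3 genes of the list, with Wnt2 and Wnt9b, whose TPM was lower in replicate 2. A processed transcript of 609 nucleotides held 49.2% and 25.1% of that TPM, and by coding transcripts alone Nostrin had 2.11 and 2.26 TPM, higher in replicate 2. Eng, endoglin, a co-receptor for BMP9 and BMP10, had 1.55 and 3.90 TPM. Plvap, the protein of the diaphragms that span endothelial pores, had 1.75 and 3.59 TPM, and Pecam1, the adhesion molecule CD31, 1.62 and 2.51 TPM. Cdh5, VE-cadherin of the adherens junction, had 1.24 and 2.43 TPM.
Esam, Cldn5, Icam2, Ramp2, Robo4 and Emcn, which encode junction, adhesion and guidance proteins, a partner of CALCRL and a sialomucin, lay between 0.381 TPM (Robo4, replicate 1) and 2.02 TPM (Esam, replicate 2). Values for Ramp2 (0.532 and 0.994 TPM) are uncertain, because 33.4% of its exon bases are shared with Vps25 on the same strand.

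Relative to Pecam1 in the same library, a ratio that no scaling between libraries can move, Stab2 stood at 4.97-fold in replicate 1 and 5.15-fold in replicate 2, Ehd3 at 2.41-fold and 2.32-fold, and Bmp2 at 0.485 and 0.484. Clec4g stood at 8.98-fold and 5.99-fold, and Nostrin at 2.57-fold and 1.20-fold. On the TPM of protein-coding transcripts alone, a unit chosen after seeing the data, Stab2 stood at 1.89-fold and 1.68-fold of Pecam1, Nostrin at 1.34-fold and 0.911-fold, and Clec4g at 8.84-fold and 5.92-fold, so the level of Stab2 depends on which transcripts are counted. Where genes were ordered by TPM within a library, the deposited TPM intervals of neighbours overlapped in 24 of 36 pairs in replicate 1 and in 26 of 36 in replicate 2. The order of most neighbours is therefore within the estimation error of 1 library. Clec4g stood apart from the next gene, Aqp1 or Stab2, in both.

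The angiocrine ligands were all low. Bmp2 (chr2:133552159-133562885, plus strand) was highest, with 0.783 TPM in replicate 1 and 1.22 TPM in replicate 2. Rspo3, which amplifies Wnt signals, had 0.422 and 0.462 TPM, and Wnt2 (chr6:17988940-18030585, minus strand) 0.401 and 0.291 TPM. Wnt9b was the lowest gene of the list at 0.0703 and 0.0502 TPM, from 92 and 47 expected counts. No ligand reached 1 TPM in both libraries. In Rspo3, 13.1% of exon bases lie opposite the antisense gene Gm48159, and whether counting used the strand was not given in the sources used here.

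Of the transcription factors, Maf, a regulator of sinusoidal and macrophage identity, had 1.15 TPM in replicate 1 and 1.49 TPM in replicate 2. Gata4, which sets the discontinuous type of endothelium in liver, had 0.582 and 0.884 TPM. Sox18, a factor of vessel formation, had 0.151 and 0.432 TPM from 68 and 123 expected counts. Maf alone passed 1 TPM in both libraries.

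The deposited transcript tables held 138 transcripts for the 37 genes, of which 12 genes had 1 model only. The protein-coding class was taken from GENCODE M21, and models no longer in that release were not counted as coding. In 25 genes protein-coding transcripts took at least 90% of the gene's TPM in both libraries, and in 6 (Stab1, Stab2, Nostrin, Ramp2, Egfl7 and Wnt2) they took under 60% in at least 1. Short models weighed heavily on the stabilins. The full-length coding transcript of Stab2, of 8228 nucleotides, held 80.2% and 79.8% of the gene's expected counts but 36.9% and 32.1% of its TPM. A model of 523 nucleotides, not in M21, held 35.6% and 41.9% of that TPM from 281 and 351 counts. On the TPM of coding transcripts alone Stab2 had 2.97 TPM in replicate 1 and 4.16 TPM in replicate 2 and ranked 10 of 37 in both, in place of 3 and 2. In Stab1 coding transcripts held 79.6% and 74.9% of counts and 44.0% and 41.1% of TPM. Clec4g ranked first and Aqp1 next by coding transcripts in both libraries.

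**Figure D3:**
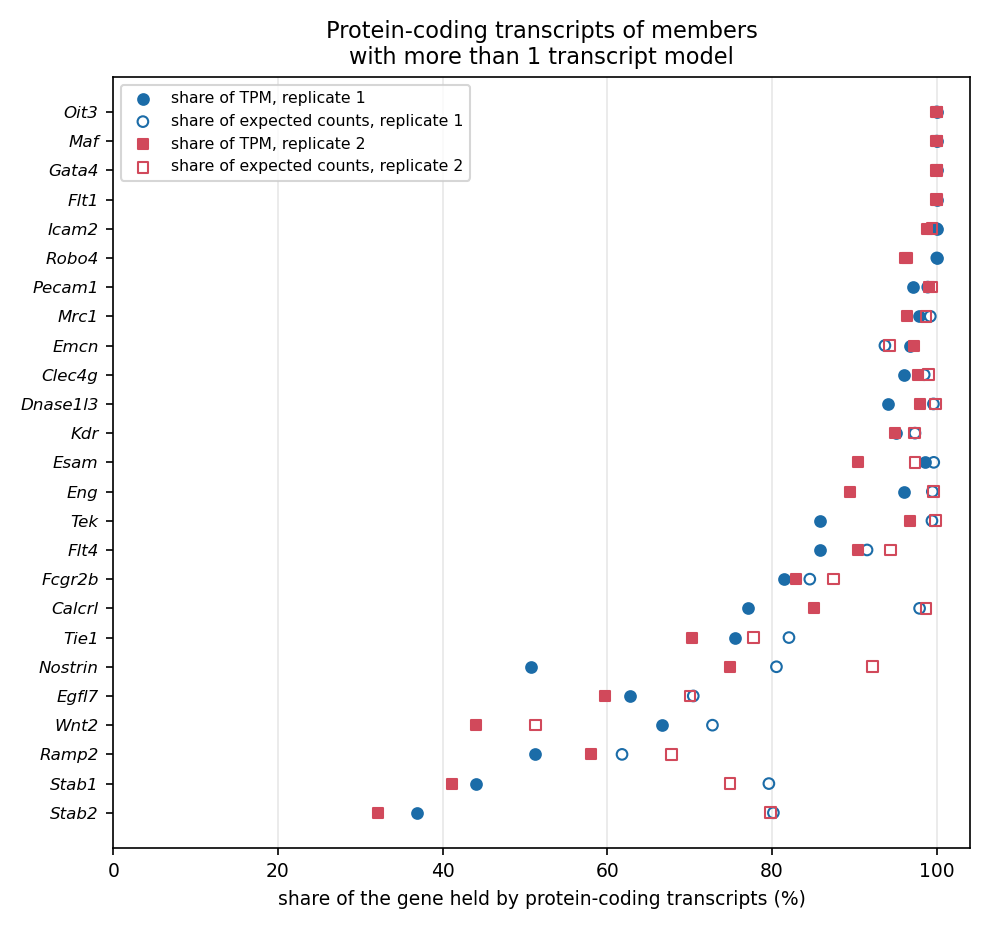
Share of each gene's TPM (filled) and expected counts (open) held by protein-coding transcripts (x axis, %), for the 25 genes with more than 1 transcript model, in replicate 1 (blue) and replicate 2 (red). Stab2 and Stab1 show the widest gap between counts (75% to 80%) and TPM (32% to 44%).

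The same transcript led in both libraries in 32 of 37 genes. In 13 genes at least 2 protein-coding transcripts each held 10% or more of the gene in both libraries. Flt1 was divided in the same way in each, with Flt1-202 at 74.9% of the gene's TPM in both libraries and Flt1-203 at 25.1%. Calcrl-202 held 53.8% and 60.2% and Calcrl-201 23.2% and 24.8%, and in Pecam1 Pecam1-203 held 56.4% and 57.5%. In Maf the longer Maf-202 held 69.7% and 74.4%. Gata4 was less steady: Gata4-202 led in replicate 1 with 61.4% and had 30.9% in replicate 2, while Gata4-201 had 4.57% and 39.2%. Robo4-203 led in replicate 1 (43.8%) and Robo4-201 in replicate 2 (48.2%). These models overlap over most of their length, so the split between them is an estimate.

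The distance between the libraries was measured for each gene as the log2 ratio of replicate 2 over replicate 1, from CPM (counts relative to library size) scaled by TMM (a method that balances the bulk of genes) plus 0.05. It was read for genes with a mean expected count of 100 or more, which 35 of 37 passed and Wnt9b and Sox18 did not. Of all 11582 such genes, 3.45% were more than 2-fold apart, with 1.61% above that limit in replicate 2 and 1.84% below it. Of the 35 endothelial genes 2 (5.71%) did, Lyve1 higher and Wnt2 lower, a share near that background for so short a list. Lyve1, with 468 and 1062 expected counts, had a log2 ratio of 1.26, with a 95% interval of 1.11 to 1.43 that covers counting error only. Wnt2, with 234 and 103 counts, had -1.07 (-1.44 to -0.75), an interval that crosses 2-fold. Lyve1 stayed over 2-fold in each alternative tried, while Wnt2 did not when scaled by spike-ins or by deposited TPM (-0.45), or with 0.5 CPM added.

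The middle of the list did not lie far from other genes. The median log2 ratio was 0.06 over the 35 genes and -0.01 over all genes, with 21 of 35 (60%) higher in replicate 2 against 48.8%. The spread was wider on the upper side: 6 of 35 (17.1%) had a log2 ratio of 0.5 or more against 9.13% of all genes, and 2 (5.71%) had -0.5 or less against 8.19%. Those 6 were Lyve1, Robo4 (0.83), Gpr182 (0.77), Flt4 (0.72), Eng (0.69) and Esam (0.68), and the 2 were Wnt2 and Nostrin (-0.65). Scavenger receptors had a median of -0.17, with 4 lower (Stab2, Mrc1, Fcgr2b and Clec4g) and 2 higher (Stab1 and Lyve1). The Kupffer cell list had a median of -0.18, with 9 of 14 lower and 5 higher. Of these 14, 2 were over 2-fold lower and none over 2-fold higher, against 1.84% and 1.61% of all tested genes. The part of Kupffer cells in the values of Mrc1 and Fcgr2b was not tested. Pan-endothelial genes had a median of 0.11, with 5 lower and 10 higher, and the 3 tested ligands -0.42, with Bmp2 at 0.09 and Rspo3 at -0.42. Ehd3, Oit3, Kdr, Ptprb and Egfl7 had log2 ratios between -0.04 and 0.06. Scaling by spike-ins moved the median of all genes to 0.27 and that of the list to 0.34, and deposited TPM moved them to 0.53 and 0.59, so each direction given here is relative to the bulk of genes. Of the 37 genes 20 kept 1 direction on every scale. Stab2, Mrc1, Fcgr2b and Clec4g did not: by deposited TPM their log2 ratios were between 0.05 and 0.68. Within ±0.25 were 15 of 35 (42.9%), against 53.7% of all genes.

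**Figure D4:**
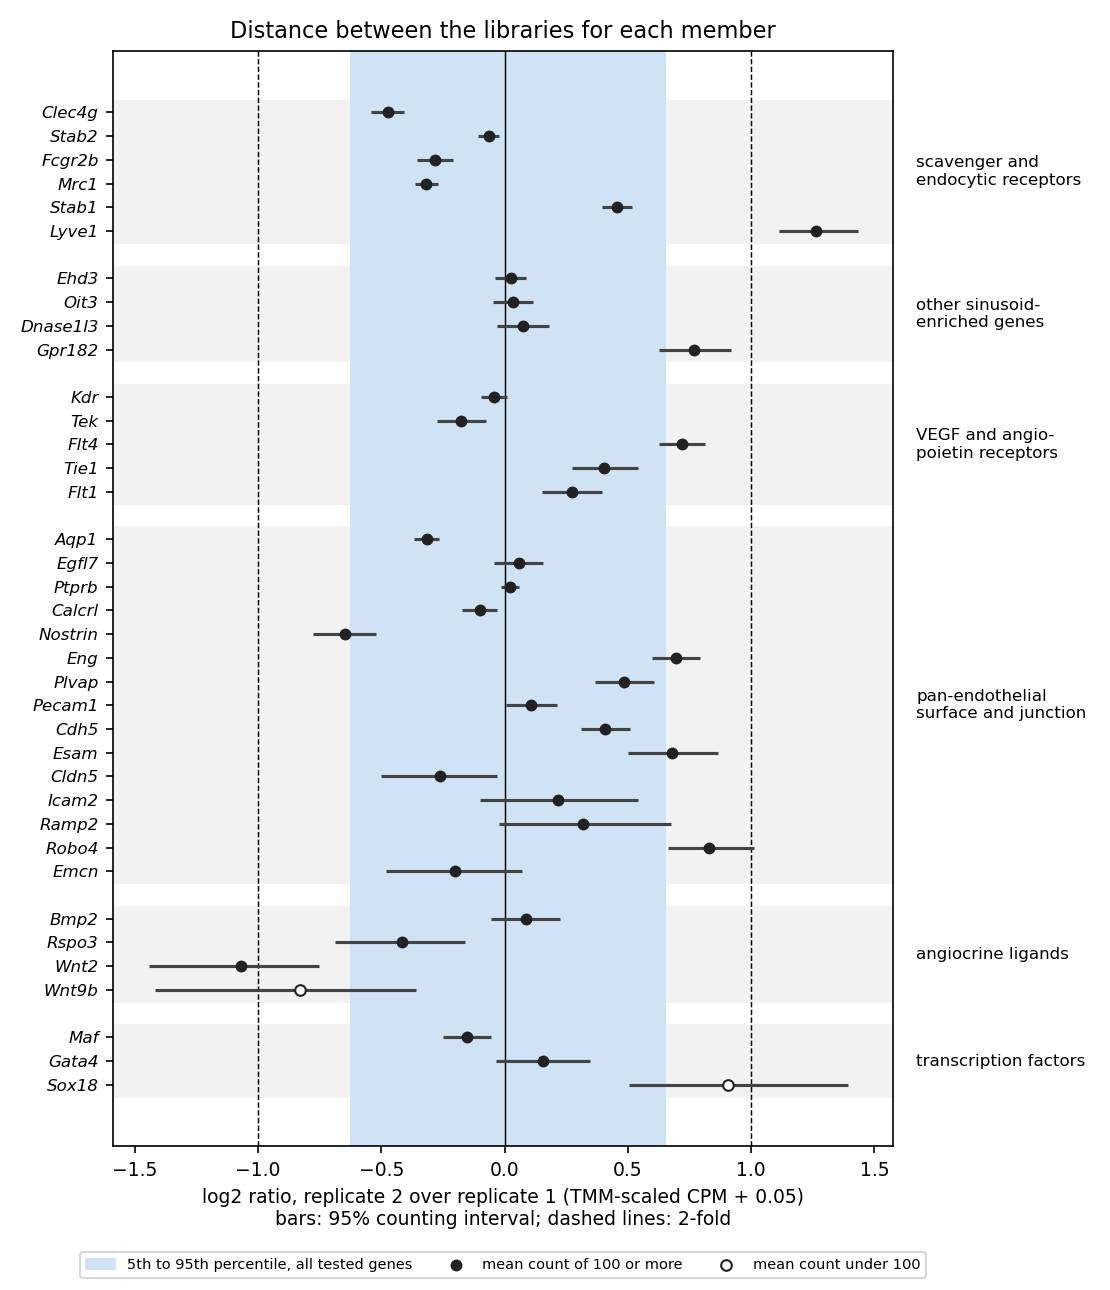
Log2 ratio of replicate 2 over replicate 1 for each gene (x axis), with bars for the 95% counting interval, dashed lines at 2-fold and a band from the 5th to the 95th percentile of all tested genes (-0.62 to 0.65). Lyve1 lies to the right of the band at 1.26 and Wnt2 to the left at -1.07, and Wnt9b and Sox18 (open) had mean counts under 100.

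The GC content of a gene's transcripts moved with this ratio across the genome. In 20 bins of tested genes the median log2 ratio ran from -0.27 at a GC content of 38.5% to 0.25 at 60.7%. The 35 endothelial genes had a median GC content of 52.1% against 49.55% for all genes, and across them the ratio and GC content had a Pearson r of 0.357 and a Spearman rho of 0.515, as a description over genes that share the same 2 libraries. After the median of genes of like GC content was subtracted, a step chosen after seeing the data, the median of the list was -0.00067, Lyve1 stood at 1.37 and Wnt2 at -1.14. Robo4 (0.71), Gpr182 (0.66), Esam (0.57), Flt4 (0.53) and Eng (0.50) remained at 0.5 or more. On the lower side Nostrin (-0.51) remained at -0.5 or less, and Cldn5 (-0.52) and Clec4g (-0.51) joined it and Wnt2 there. The lower side thus held more genes than before this step. The shares of all genes past these limits after the step are not given here.

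Partners of these genes were read from lists of their pathways. Of the VEGF ligands and co-receptors, 4 of 7 were tested and none lay over 2-fold apart. Vegfa, the ligand of Kdr and Flt1, had 13.0 TPM in replicate 1 and 18.0 TPM in replicate 2, above every receptor. The co-receptors Nrp1 (4.06 and 4.01 TPM) and Nrp2 (1.24 and 1.25 TPM) had log2 ratios of -0.57 and -0.56. Of 5 genes of the angiopoietin list 4 were tested, 2 higher and 2 lower in replicate 2 and none over 2-fold apart. Angptl4, which inhibits lipoprotein lipase, led them with 14.5 and 18.1 TPM, of which protein-coding transcripts held 4.88 and 6.31 TPM. Angpt2, a context-dependent ligand of TIE2, came next with 0.0903 and 0.261 TPM, and Angpt1, an agonist of TIE2, had 0.161 and 0.121 TPM. For adrenomedullin 1 of 7 genes was tested, Ramp1 at 0.391 and 0.693 TPM. Adm itself had 54 and 83 counts and Ackr3, a decoy receptor, 44 and 63, so the ligand of Calcrl and Ramp2 was near the limit of reading.

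Of 15 tested genes of BMP and endoglin signalling, 12 were higher in replicate 2 and 3 lower (median 0.27), against 48.8% of all tested genes higher. Of these 15, 1 passed 2-fold, against 3.45% of all tested genes. That gene was Hamp, which encodes hepcidin, with 73.3 TPM in replicate 1 and 218 TPM in replicate 2 (log2 ratio 1.09). Id3 and Id1, direct targets of BMP signals, had 3.62 and 7.11 TPM and 1.79 and 4.95 TPM, with log2 ratios of 0.56 and 0.92. Bmp2 lay at 0.09 and Eng at 0.69 in the same libraries. The second endothelial BMP ligand, Bmp6, had 0.271 and 0.472 TPM.

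Of 14 tested genes on a list of Wnt and R-spondin reception, 9 were higher and 5 lower (median 0.11), none over 2-fold. Porcn (0.53) and Wls (-0.05), also on that list, serve the release of Wnt, not its reception. The list was led by Lgr4 (5.88 and 9.28 TPM), Lrp6 (4.47 and 6.93 TPM) and Lrp5 (1.55 and 3.50 TPM). Of 12 tested hepatocyte genes that are Wnt targets or pericentral, 11 were lower in replicate 2 and 1 higher (median -0.48). Of these 12, 2 passed 2-fold: Glul, glutamine synthetase of the innermost cells (78.5 and 55.7 TPM, log2 ratio -1.05), and Rhbg, an ammonium transporter (2.68 and 1.79 TPM, -1.13). Of all tested genes 48.8% were higher in replicate 2 and 1.84% were over 2-fold lower. By TPM the directions were mixed, with Cyp2e1, Cyp1a2 and Notum among those higher in replicate 2 and Glul, Rhbg, Rgn and Oat among those lower. The highest of the list were Cyp2e1 (420 and 438 TPM, -0.49), Rgn (265 and 217 TPM, -0.84) and Oat (177 and 167 TPM, -0.63). Wnt2 and Wnt9b were also lower in replicate 2, on every scale tried, and Rspo3 was lower by TMM but not by deposited TPM (0.13). Glul and Rhbg encode products of hepatocytes, not of endothelium, and with 2 libraries no relation between ligands and targets can be tested.

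Endothelial genes of the central and the portal end of the sinusoid were read beside all genes, of which 48.8% were higher in replicate 2. By TMM all 5 tested genes of the central vein side were lower in replicate 2 (median -0.59). Among them were Wnt2 and Rspo3 of the present list and Kit (0.412 and 0.352 TPM, -0.59). Thbd lay near 0 (-0.07), with a counting interval of -0.32 to 0.19. By TPM Wnt2 and Kit were lower, Cdh13 was level (0.241 in both), and Thbd (0.251 and 0.352) and Rspo3 (0.422 and 0.462) were higher. Of 6 tested genes of the portal side 4 were higher and 2 lower (median 0.48). Ltbp4 (1.02 and 3.64 TPM, 1.32) and Dll4 (0.321 and 0.783 TPM, 1.14) passed 2-fold, against 1.61% of all tested genes over 2-fold higher. Dll4 is named here after its values were seen. After the median of genes of like GC content was subtracted, Ltbp4 stood at 1.07 and Dll4 at 0.99, under 2-fold. Msr1 (-0.54) and Adam23 (-0.50), on the same portal list, went the other way. The difference between the lists was not tested. The summed TPM of 7 arterial genes was 0.753 in replicate 1 and 1.33 in replicate 2, and lymphatic genes other than Prox1 and Reln, which hepatocytes and stellate cells also express, were under 1 TPM in both libraries.

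**Figure D5:**
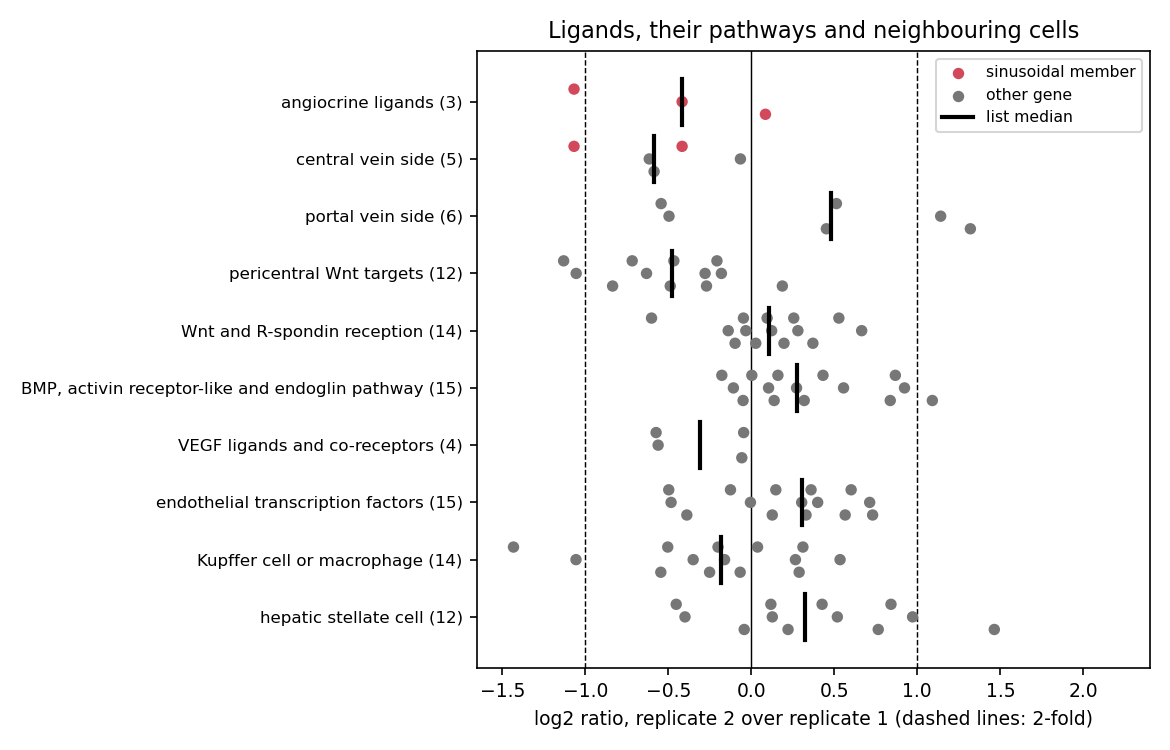
Log2 ratio of replicate 2 over replicate 1 (x axis) for tested genes of 10 lists, with their number in brackets, a bar at the list median and red points for genes of the present list. Central vein and pericentral Wnt target genes lie mostly left of 0 (medians -0.59 and -0.48), and portal side genes have a median of 0.48.

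Endothelial transcription factors other than those of the list had a median log2 ratio of 0.30, none over 2-fold. Of 15 tested, 10 were higher and 5 lower, against 48.8% of all tested genes higher. Epas1, the hypoxia factor HIF-2 alpha, led them with 4.37 TPM in replicate 1 and 8.47 TPM in replicate 2, followed by Hhex and Ets1. Of 15 genes of nitric oxide, clotting and hormone handling, 9 were tested, 5 higher and 4 lower (median 0.10), none over 2-fold. Ece1, which activates endothelin, had 68.8 and 64.6 TPM, with wide deposited intervals (51.3 to 89.3 and 48.6 to 84.1). Its log2 ratio was 0.41, from 9550 and 11938 counts. Ptprb had more counts (12907 and 12313) at only 3.50 and 5.22 TPM, so the high TPM of Ece1 is not matched by its counts. Vcam1, a leukocyte adhesion molecule, had 1.71 and 2.67 TPM. F8, clotting factor VIII, for which sinusoidal endothelium is the known source in liver, had 3.55 and 3.19 TPM and a log2 ratio of -0.67.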

How the data were processed

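Each library had a gene table and a transcript table, made by the authors. Per the file headers, these hold expected counts, TPM, FPKM, effective lengths, TPM intervals and, for transcripts, the percent of the gene held by each model. Per the submitters' processing notes, the assembly was mm10 and the models GENCODE M4, with ERCC spike-ins added. Which aligner and quantifier were used is not stated in those notes. Names, classes and coordinates came from GENCODE M21 on the same assembly. Deposited TPM was rescaled over mouse genes only. Expected counts were rounded for TMM (edgeR 4.0.16, factors 0.950 and 1.05 over 14703 genes) and for DESeq2 1.42.0 size factors, in R 4.3.3. Deposited FPKM served as an alternative unit. Ratios are log2 of TMM-scaled CPM plus 0.05 (about 4 counts), for genes with a mean count of 100 or more. Intervals are exact Clopper-Pearson 95% intervals of the count ratio and cover counting error only. The calculation of ratios was tested on simulated data. With 1 library a side there is no test and no p-value. The 37 genes, the other lists and the alternatives were chosen with earlier results of these data known, and a later step (protein-coding transcripts, GC content) after seeing the data. All 37 genes are named, as are the 3 highest genes of each pathway list by mean TPM and any pathway gene over 2-fold apart. A single gene of a pathway list is not reported here.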

Additional observations from a re-analysis of the deposited data

How the results depend on the processing

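No paired analysis was possible because all samples are of 1 group. The number of genes at 1 TPM or more, 20, was 36 at a limit of 0.1 TPM, 37 at 10 expected counts, 34 at 1 FPKM and 36 at 1 TPM among protein-coding genes, and 20 to 29 when 1 library was left out. The scavenger share of 39.3% was 33.2% by counts, 28.1% without Stab1, Mrc1, Fcgr2b and Maf, and 35.1% by coding transcripts, and 37.98% to 40.7% with 1 library left out. The pan-endothelial share of 39.3% was 47.5% without those 4 genes, 44.2% without the highest gene of each group and 40.5% by coding transcripts (38.85% to 39.8% with 1 library left out), and the ligand share of 1.62% was 1.96%, 1.15% and 1.502% to 1.75% under the first, the second and the last of these. The share of the list was 0.0804% of protein-coding TPM and 0.112% of counts in place of 0.0115% of endogenous TPM, which was 0.00959% to 0.0134% in the single libraries. The median log2 ratio of 0.06 was 0.34 by spike-ins, 0.59 by deposited TPM, -0.000672 after GC correction and 0.0242 for genes at a mean of 1 TPM. The 2 genes over 2-fold apart became 4 by spike-ins, 8 by deposited TPM, 1 with 0.5 CPM added and 1 of 25 at a mean of 1 TPM. DESeq2 size factors, TMM over protein-coding genes and no filter on counts left the median at 0.05 to 0.06 and the number at 2. The cause of these shifts was not tested, other than that the limits change which genes are counted. Low counts limit Wnt9b, Sox18, Ramp2 and Icam2 most. The deposited TPM intervals do not include differences between animals.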
